A study of Mus musculus with 6 samples.

Results

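DPPA4 binding seen only in 2-cell-like cells (2CLCs) was followed here in the megabase stretches of the mouse genome where it was densest. Peaks from GFP-negative and GFP-positive cells that shared at least 1 bp were merged on chromosomes 1 to 19, and each merged region was placed in a 1-Mb window by its midpoint. A region made of GFP-positive peaks alone was called GFP-positive-only, and a window with 30 or more of these was called a hotspot. There were 110 hotspot windows among 2410 windows with any region (4.56%), and they held 4711 of the 17878 GFP-positive-only regions (26.4%, 95% Wilson interval 25.7 to 27%, which covers counting error only and treats neighbouring regions as independent). The full set of merged regions numbered 97623, of which 18.3% were GFP-positive-only, 33751 were common to both lists and 45994 were GFP-negative-only. The windows and their members were chosen by the count of GFP-positive-only regions, so that count and its contrast with the GFP-negative list are given below as a description and support nothing by themselves.

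The cells were mouse embryonic stem cells (mESCs) of the KH2 line, an F1 hybrid of C57BL/6J and 129S1 (BL6/129 hybrid in the labels), that carried EHMT2 fused to a dTAG degron with mCherry, and a GFP reporter under the MERVL promoter. Both groups had received dTAG for 72 h, so EHMT2 was a target of degradation in GFP-negative and GFP-positive cells alike, and cells without dTAG are not part of the comparison. Live cells were sorted by GFP, with GFP-negative cells standing for mESCs and GFP-positive cells for 2CLCs, and DPPA4 was profiled by CUT&RUN, in which an antibody tethers a nuclease that releases bound DNA fragments. The 2 DPPA4 libraries of each group were pooled into 1 peak list. The values below therefore come without replicate error, and differences between the lists were not tested. The 2 IgG libraries were not used.

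DPPA4 is a DNA-binding protein of the early embryo and of pluripotent cells that acts together with its partner DPPA2, and both are needed in mESCs for the expression of genes of zygotic genome activation. 2CLCs arise at low frequency in mESC cultures and express MERVL retroviruses and 2-cell-stage genes such as the Zscan4 family, many of which stand in the genome as clusters of near-identical copies. EHMT2, also known as G9a, deposits the repressive mark H3K9me2. A cluster of copies matters for these data because a read that matches several places was set down by the authors at only 1 of them. A peak in multi-copy sequence therefore shows that some copy was bound, not which one.

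The sequences at the strongest sites show the kinds of DNA that the hotspots contain. Each line gives 101 bases around the summit of the GFP-positive-only region with the highest −log10 q in its window, on the plus strand of mm10, where −log10 q is the significance that the peak caller gave, higher being stronger. Capitals mark bases covered by a 31-mer that occurs at least 2 times in the same window. The copy number is the median count in the genome of the 31-mers in the 200 bp around the summit. The Sp100 window is shown for a stretch with every base repeated locally and the Zscan4 window for a stretch repeated in part. The Speer4 and Tdpoz windows are shown for stretches with a few copies, and the Sfi1 window for a copy number of 1.
Sp100 window, chr1:85270565-85270665: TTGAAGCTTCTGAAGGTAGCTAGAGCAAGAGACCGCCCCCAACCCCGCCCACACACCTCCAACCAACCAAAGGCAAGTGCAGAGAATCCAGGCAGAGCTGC
Zscan4 window, chr7:11031150-11031250: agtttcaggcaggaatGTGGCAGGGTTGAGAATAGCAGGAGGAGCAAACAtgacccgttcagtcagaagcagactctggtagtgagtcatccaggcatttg
Speer4 window, chr5:15552509-15552609: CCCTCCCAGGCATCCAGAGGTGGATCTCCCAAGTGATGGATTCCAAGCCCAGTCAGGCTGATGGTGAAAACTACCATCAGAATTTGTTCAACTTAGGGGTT
Tdpoz window, chr3:93813339-93813439: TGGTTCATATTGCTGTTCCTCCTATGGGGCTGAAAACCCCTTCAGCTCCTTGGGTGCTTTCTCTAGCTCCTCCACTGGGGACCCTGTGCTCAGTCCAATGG
Sfi1 window, chr11:3189335-3189435: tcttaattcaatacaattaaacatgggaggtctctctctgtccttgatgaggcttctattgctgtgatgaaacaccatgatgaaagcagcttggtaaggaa

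The Sp100 site lay at a promoter, inside the bodies of Gm2619 and Gm16026, and had 3 copies in the genome, all 3 in its own window. The gene C130026I21Rik, on the minus strand, starts at chr1:85270566, within the printed bases. The Speer4 site, in introns of Gm21847 and Gm30613, had 4 copies, with 3 of them in its window. The Tdpoz site was intergenic and had 4 copies, with 2 in its window. The Zscan4 site was intergenic, and its region of 14066 bp was the widest of the strongest regions in the 10 fullest windows. The Sfi1 site lay at a promoter of an annotated transcript, inside the bodies of both Sfi1 and Drg1. It had a copy number of 1 and the highest −log10 q of these sites, 47.8.

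Hotspots were the far end of a skewed distribution and not a class set apart by a gap. The other 2300 windows held a median of 4 GFP-positive-only regions (quartiles 1 and 8), while hotspot windows held a median of 37 (quartiles 33 and 47.75) and at most 131. At the threshold, 8 windows held 30 and 5 held 31 such regions, while 17 held 29 and 9 held 28. Windows just inside had median counts of 28.5 (at 30) and 16 (at 31) protein-coding genes, and windows just outside had 22 (at 29) and 24 (at 28). Zscan4b stood in a window of chromosome 7 that held 29 and so missed the threshold. Hotspots lay on 18 of the 19 autosomes, from 12 windows each on chromosomes 5 and 8 to none on chromosome 18. Of the 110 windows, 51 had a hotspot as neighbour, in 22 runs of 2 or more. The longest run covered 4 windows at chr3:93000001-97000000, from the Tdpoz genes to a histone gene cluster, and held 214 members. Chromosomes X and Y held 423 GFP-positive-only regions and 0 windows at the threshold.

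**Figure D1:**
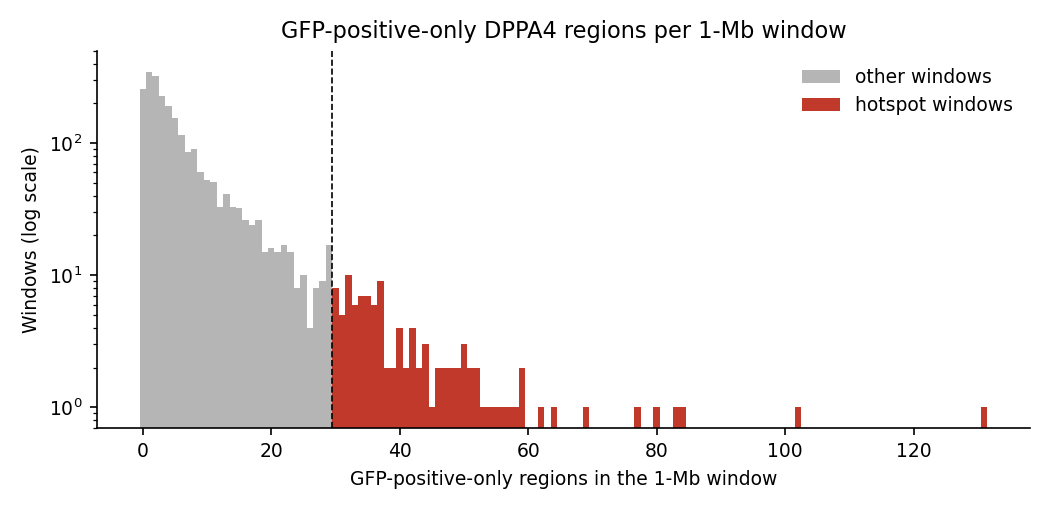
Number of 1-Mb windows (y axis, log scale) by the count of GFP-positive-only regions they hold (x axis), with hotspot windows in red and the threshold of 30 as a dashed line. The counts fall off without a gap at the threshold, and 1 window reaches 131.

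The number of hotspots depended on which peaks were kept. When both lists were limited to peaks at a −log10 q of 2 or more, 25 windows reached 30, all 25 among the 110, and at 5 or more only 2 did, the Sp100 window with 35 and the Sfi1 window with 33. When each list was cut to its 50000 strongest peaks, which drops far more of the GFP-negative list, 154 windows reached 30, 106 of them among the 110. With members of copy number 1 alone, 55 windows reached 30.

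Dense GFP-positive-only binding went, across the genome, with dense binding of other kinds. Over the 2410 windows, the GFP-positive-only count had a Spearman rho of 0.64 with the common count, 0.47 with the GFP-negative-only count, 0.57 with the number of protein-coding genes and 0.49 with GC content. The windows share chromosomes and base composition, so these correlations are descriptions. Within the 110 hotspots the rho with the common count was 0.03 and with the GFP-negative-only count −0.14. Hotspots held 16.4% of common regions and 10.1% of GFP-negative-only regions, both less than the 26.4% of GFP-positive-only regions that the rule gave them. GFP-positive-only regions outnumbered GFP-negative-only ones in 59 hotspots and made up over 50% of all regions in 28.

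The hotspots ranged widely in how much of their sequence was repeated locally. Local repetition was measured as the share of a window's 31-mers that occur more than once within it, and for description the windows were split at 10%, a value picked after the data were seen that falls at no gap in the measure. In 31 windows, with 1532 members, local repetition was 10% or more (median 27.3%), and in 79 windows, with 3179 members, it was lower (median 3.69%). The locally repeated windows held a median of 40 GFP-positive-only, 7 GFP-negative-only and 22 common regions. The other hotspots held 37, 51 and 53. GFP-positive-only regions were 54% of all regions in the first kind and 26.4% in the second, beside 15.9% outside hotspots. They outnumbered GFP-negative-only regions in 28 of 31 locally repeated windows and in 31 of the other 79. The locally repeated windows thus had a GFP-negative-only count close to the median of 8 in windows that were no hotspot, while the others stood above those windows in all 3 classes. With members of copy number 1 alone, 3 of the 31 locally repeated windows and 52 of the other 79 reached 30. Local repetition alone did not mark a hotspot. Of 337 windows at or above 10%, 9.20% were hotspots, against 3.81% of the 2073 windows below it, and the remaining 306 repeated windows did not reach 30.

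**Figure D2:**
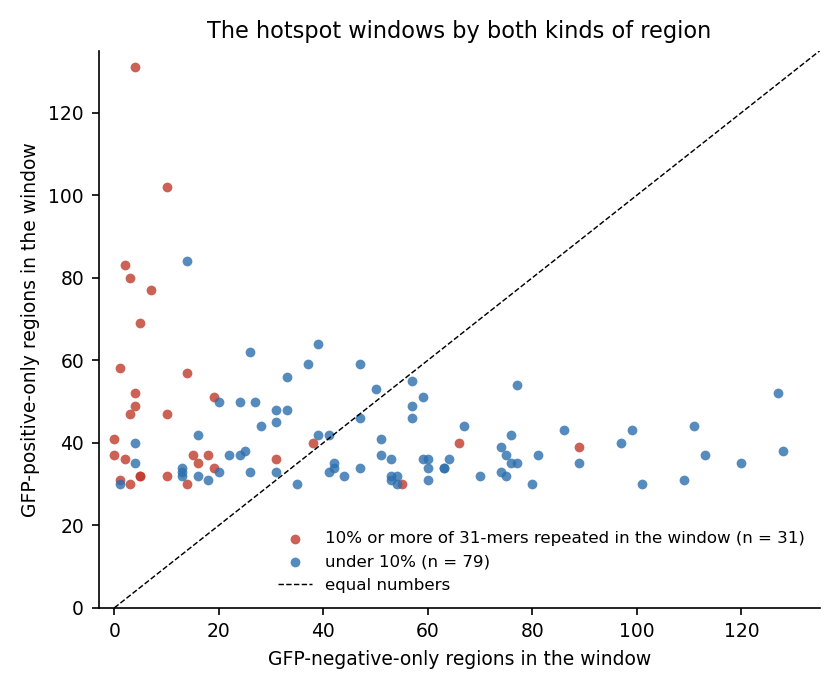
GFP-positive-only regions (y axis) against GFP-negative-only regions (x axis) in each of the 110 hotspot windows, coloured by the share of 31-mers repeated in the window, with equal numbers as a dashed line. Red points, the 31 locally repeated windows, lie mostly at the left, with a median of 7 GFP-negative-only regions and at most 89, and blue points, the other 79, spread over the whole x axis up to 128.

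Hotspot windows were gene-dense. They held a median of 20 protein-coding genes (quartiles 12 and 33.5) against 5 (quartiles 1 and 11) in the other windows, a difference of 15 (95% order-statistic interval 13 to 18, over windows). That interval covers the hotspot median alone, with the other median held fixed, and treats neighbouring windows as independent. Counting every gene of the annotation gave 43 against 16. Long non-coding genes numbered 7.5 against 4 and pseudogenes 6 against 3. GC content was 45.9% against 41.5%. The share of soft-masked bases, which marks interspersed repeats and low-complexity sequence, was 33.0% against 31.7%. The difference was 1.26 points, and its interval, made in the same way, was −0.674 to 2.23 and included 0. Gene content and GC also differed between the groups split on local repetition. Hotspots with little local repetition had 21 protein-coding genes, 5 pseudogenes, a GC of 46.7% and 30.5% of soft-masked bases. Locally repeated hotspots had 11 protein-coding genes, 17 pseudogenes, a GC of 43.1% and 40.2% of soft-masked bases. Predicted genes are here those named by a Gm number, a Rik clone or a sequence identifier such as BB287469. They were a median of 20% of the protein-coding genes in the locally repeated kind and 5.66% in the other kind.

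**Figure D3:**
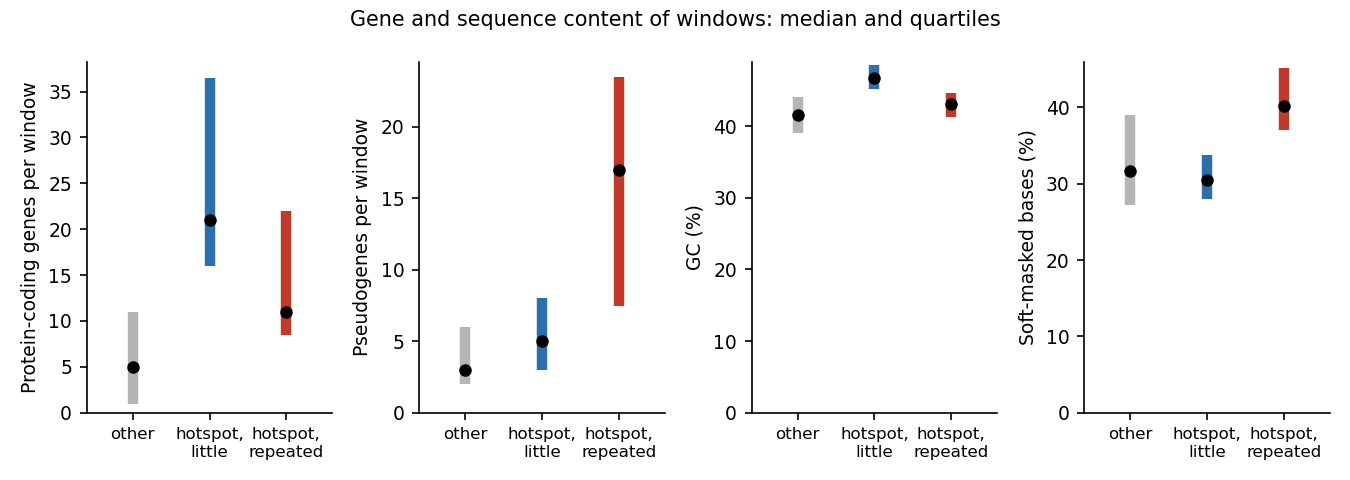
Protein-coding genes, pseudogenes, GC content and soft-masked share per window (y axes) in other windows (grey), hotspots with little local repetition (blue) and locally repeated hotspots (red), as medians (points) and quartiles (bars). The medians for protein-coding genes are 5, 21 and 11, and those for pseudogenes are 3, 5 and 17.

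Of the 10 fullest windows, 6 were locally repeated gene-family clusters, and 4 were not. The first was the Sp100 window, chr1:85000001-86000000, with 131 GFP-positive-only, 4 GFP-negative-only and 17 common regions. It holds Sp100, Sp110 and Sp140, nuclear body proteins that read chromatin, and predicted relatives. Within 5 kb of the gene C130026I21Rik (chr1:84992690-85270566) there were 55 members, 52 of them with a copy number of 2 or more, and Sp140 had 13 and Sp110 had 12. GFP-negative-only regions numbered 1, 0 and 0 at these 3 genes.

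The next window, chr12:87000001-88000000, held 102, 10 and 24 regions of the 3 classes. It contains Oog1, a PRAME-family gene of oocytes, and a series of predicted genes. BB287469 had 7 members within 5 kb, and Gm4027, Gm2016, Samd15 and Alkbh1 had 6 each, with 0 GFP-negative-only regions at any of the 5. Its strongest member lay at a promoter inside the bodies of Tmed8 and of Samd15, 1 of these 5 genes, with a copy number of 1.

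The Zscan4 window, chr7:11000001-12000000, held 83, 2 and 5 regions, and GFP-positive-only regions were 92.2% of the total, the highest share of any hotspot. ZSCAN4 proteins are zinc-finger factors of the 2-cell stage that act in telomere maintenance. Zscan4c and Zscan4d had 5 members each within 5 kb, Zscan4-ps3 had 4, and Zscan4e and Zscan4f had 3 each. No GFP-negative-only or common region lay within 5 kb of these 5 genes.

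The Speer4 window, chr5:15000001-16000000, held 80, 3 and 4 regions. The Speer genes encode glutamate-rich proteins of the testis. Speer4d had 4 members, and the predicted genes Gm21149 and Gm21190 had 6 and 4. Of the 80 members, 98.8% had a copy number of 2 or more, so their placement among the copies is uncertain. Whether the reads could tell the copies apart was not tested.

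The Obox window, chr7:15000001-16000000, held 77, 7 and 23 regions. Obox genes encode homeodomain factors of oocytes and early embryos. Obox1 had 9 members within 5 kb and Obox3 and Obox6 had 3 each. Bicra, a subunit gene of BAF chromatin remodelling complexes, had 12. Its body (chr7:15970672-16047921) runs into the next window, also a hotspot, so the 12 are not limited to the Obox window. Copy numbers of 10 or more made up 54.5% of members here, the highest share among the 10 windows. The Tdpoz window, chr3:93000001-94000000, held 69, 5 and 24 regions. Tdpoz genes encode proteins with a TRAF and a POZ domain. Tdpoz4 had 6 members and Tdpoz3 had 5, each with 0 GFP-negative-only regions.

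The 4 windows that were not locally repeated held mostly single-copy members. The window of Dst, which encodes the cytoskeletal linker dystonin, was chr1:34000001-35000000, with 84, 14 and 55 regions and 77 members of copy number 1. Dst itself, which begins in the window before, had 44 members within 5 kb, of which 1 had a copy number of 2 or more. Over the whole gene there were 10 GFP-negative-only and 35 common regions, a longer stretch than that of its members, which lie in the hotspot alone. The window chr5:123000001-124000000 held 64, 39 and 67 regions. Here Lrrc43 and Vps33a, the latter a factor of lysosome fusion, had 7 members each, and Psmd9, a proteasome assembly factor, had 6. The window chr15:81000001-82000000 held 59, 37 and 52 regions, and Mrtfa, a co-activator of serum response factor, had 22 of its members.

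The Sfi1 window, chr11:3000001-4000000, held 62, 26 and 35 regions. Sfi1 encodes a centrin-binding protein of the centrosome. The 61614 bp of this gene and its 5-kb flanks had 38 members, 0 GFP-negative-only and 4 common regions, or 53.1 members per 100 kb of that span, the densest of the 25 protein-coding genes with most members. Only 2 of the 38 had a copy number of 2 or more in the reference. Their median −log10 q was 8.40 while their median fold enrichment, the ratio of signal at the summit to the background that the caller estimated, was 2.28, the lowest of the 25 genes, against medians of 2.07 and 3.47 over all members. C130026I21Rik, A530032D15Rik, Sp110 and Sp140 likewise had median folds of 2.53, 2.53, 2.63 and 2.69 with median −log10 q of 2.90, 6.48, 5.07 and 5.17. A low fold with a high −log10 q arises where the local background that the peak caller estimates is itself high. The part of local background in these calls was not tested.

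**Figure D4:**
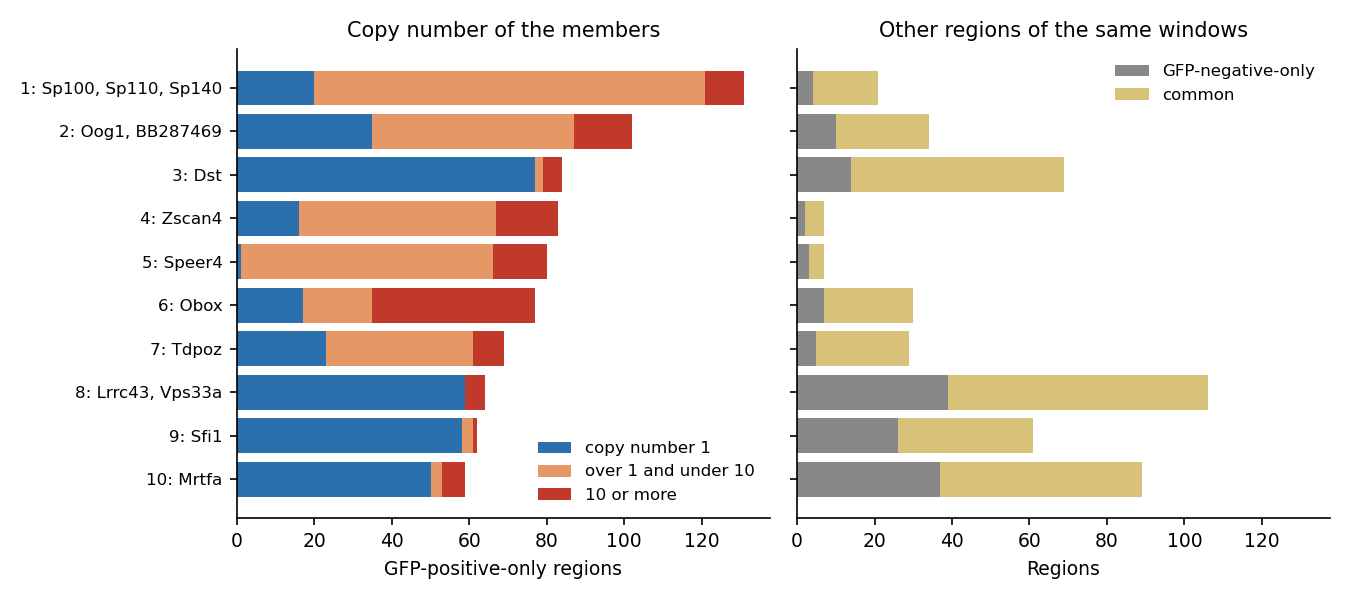
Left, GFP-positive-only regions of the 10 fullest windows (rank and genes on the y axis), stacked by copy number of the summit; right, GFP-negative-only and common regions of the same windows on the same scale. The windows of Dst, Lrrc43 and Vps33a, Sfi1 and Mrtfa are mostly of copy number 1, and the other 6 have up to 10 GFP-negative-only regions each.

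Over all hotspots, the 25 protein-coding genes with most members were mainly long or ordinary single-copy genes, and 4 of them, all at the Sp100 window, were assigned to locally repeated hotspots. Dlgap2, a gene of the postsynaptic scaffold, had 26 members beside 5 GFP-negative-only regions. Glis1, a zinc-finger factor, had 21 beside 3. Rxra, the retinoid X receptor alpha, had 19 beside 3, and all 19 had a copy number under 2. Cux2, a homeodomain factor, had 19 beside 23, and Rptor, a subunit of mTORC1, had 17 beside 20, so at these last genes mESC-only binding was as frequent. Ube2w, Iars and Gpbp1l1 had 16, 13 and 11 members with 0 GFP-negative-only regions. Fgfr2 and Gm20388 had 33 and 31 members beside 100 and 538 GFP-negative-only and 49 and 350 common regions. Their annotated bodies of 2960900 and 4434882 bp span several windows and include other genes, and only the members are limited to hotspot windows.

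Gene families were unevenly shared out among the hotspots. Of 20807 protein-coding genes, 2570 (12.4%) start in a hotspot window. All 5 Tdpoz genes, 3 of 3 Sp100 family genes, 2 of 2 Tcstv genes, 4 of 5 Zscan4 genes and 5 of 7 Obox genes did so, each family in 1 window except Tcstv in 2. The PRAME-related genes (Pramel, Pramef and Oog) had 7 of 15, and 6 of these 7 were in the window chr4:143000001-144000000. Of the 15, 4 had a member within 5 kb. Speer genes had 3 of 10 in hotspots. These lists were put together with earlier results of these data known, and they describe the windows that the rule chose.

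Zinc finger genes named Zfp were widely spread, with 68 of 385 (17.7%) in 27 hotspots, as were the Slc transporters, with 41 of 358 (11.5%) in 29. The windows chr4:145000001-148000000 held 18 of them and 141 members in a run of 3 locally repeated hotspots, among them Zfp600 and genes of the series Zfp978 to Zfp993. A window of chromosome 7, chr7:127000001-128000000, held 10 more beside 55, 57 and 86 regions of the 3 classes. Genes of ribosomal proteins (Rpl and Rps) had 23 of 75 (30.7%) in 19 hotspots, most of them alone in their window. Only 10 of the 75 had a member within 5 kb, and the 23 in hotspots had a median of 0 members there. Windows with clusters of unlike function also met the rule. The window chr15:102000001-103000000 held 8 of 39 Hox genes, Hoxc5 to Hoxc13, which pattern the body axis, and 4 of these 8 had a member within 5 kb. The window chr3:96000001-97000000 held 10 of 67 histone genes (14.9%, near the 12.4% of all genes), 5 of them with a member within 5 kb. The window chr2:152000001-153000000 held 11 of 64 defensins, 4 of them with a member within 5 kb.

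Several families that stand in clusters were scarce in hotspots. Olfactory receptors had 9 of 1128 genes there (0.798%), vomeronasal receptors 5 of 208 (Vmn1r) and 4 of 119 (Vmn2r), keratins 2 of 110, and Cyp genes 2 of 100. The 5 Vmn1r genes were in the Zscan4 window. Protocadherins (57 genes), serpins (60), Klr receptors (26), Mup (22), Ugt (22), Skint (11) and Usp17l (5) had 0. Among 22 pluripotency genes, 3 were in hotspots (13.6%, near the 12.4% of all genes): Pou5f1, Klf2 and Nr5a2.

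**Figure D5:**
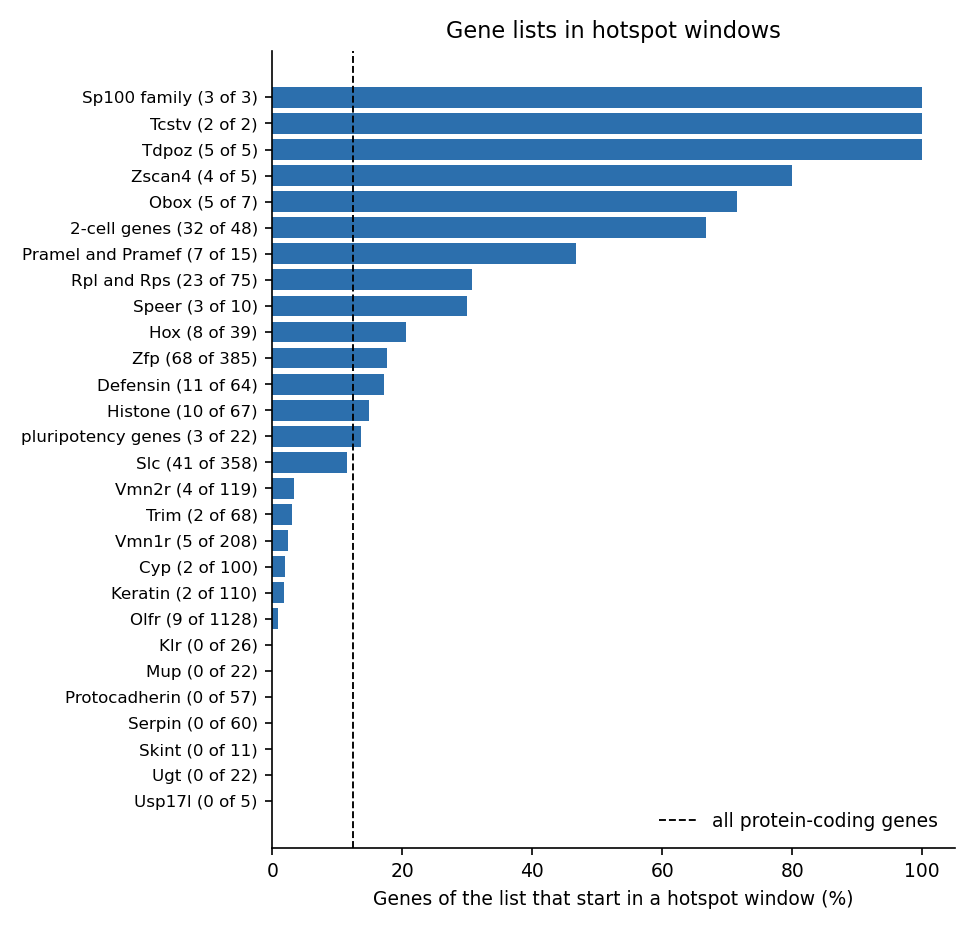
Share of the genes of each list that start in a hotspot window (x axis, percent), with the counts beside each list name and the 12.4% of all protein-coding genes as a dashed line. Tdpoz, Sp100 family and Tcstv reach 100%, Slc transporters (41 of 358) sit near the line, and receptor families lie well under it.

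Of 48 genes known for expression at the 2-cell stage or in 2CLCs, 32 (66.7%) were in hotspots, in 11 windows, against 12.4% of all protein-coding genes. These 11 windows held 708 members (15%) and only 114 GFP-negative-only regions, a median of 5 a window, and 8 of the 11 were locally repeated. The other 99 hotspots, with none of the 48 genes, held 4003 members and a median of 42 GFP-negative-only regions, and 23 were locally repeated. A GFP-positive-only summit lay at the promoter, from 2500 bp upstream to 500 bp downstream of the gene's start, for 31 of the 48 genes, against 4.45% of all protein-coding genes, and a GFP-negative-only summit for 0 of the 48, against 14.5% of all. Within hotspots a GFP-positive-only promoter summit was found for 22 of 32, against 12.1% of all 2570 protein-coding genes of hotspot windows, including Tcstv1 and Tcstv3, Tmem92, Gm5662, 4 of 5 Tdpoz genes, Obox5 and Obox6. None of Zscan4c, Zscan4d, Zscan4e and Zscan4f had a summit of any class in that interval, although each had members within 5 kb. The list of 48 genes was put together with earlier results of these data known. Many of its genes belong to the same families and share windows, such as Tdpoz, Obox and Zscan4, so they are not independent counts. A summit in multi-copy promoter sequence shows that some copy was bound, not which. The shares for this list are therefore descriptions.

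Most members were in sequence found once in the genome. Of 4711 members, 3148 (66.8%) had a copy number of 1, 985 (20.9%) of 2 to under 10, and 567 (12.0%) of 10 or more, and 11 were at 1.5. The share with 2 or more was 32.9% (Wilson interval 31.6 to 34.3%), near the 35.5% of all GFP-positive-only regions. The make-up differed from GFP-positive-only regions elsewhere. Low copy numbers, 2 to under 10, were 20.9% of members and 8.37% of the 13167 regions outside hotspots, while copy numbers of 10 or more were 12.0% and 28.1%. Soft-masked bases made up 40.6% of member sequence and 55.5% outside. Hotspot members were thus less often in high-copy repeats than 2CLC-only binding in the rest of the genome. GFP-negative-only regions of the same windows had 5.01% with a copy number of 2 or more and 18.5% of soft-masked bases, and common regions had 8.83% and 18.5%.

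Copy number is tied to the split on local repetition, so its values in the split groups are descriptions. It was 2 or more for 69.9% of members in locally repeated windows and for 15.1% in the others. For the 1552 multi-copy members together, 890 (57.3%) had a second copy in the same window and 267 (17.2%) had all their copies there. A second copy in the window was found for 67.9% of multi-copy members in locally repeated windows and for 33.9% in the others. Where there was a second copy in the window, the median number of copies in the genome was 5 in locally repeated windows and 149.5 in the others. The window edge cut some clusters. The Tcstv1 window on chromosome 13 had a local repetition of 9.46%, under the split, although 93.3% of its 30 members had a copy number of 2 or more.

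Among the regions that held it, a single 31-mer was found almost entirely in GFP-positive-only ones. The 31-mers found in the largest numbers of members were taken in steps, each adding members not yet counted, and the third was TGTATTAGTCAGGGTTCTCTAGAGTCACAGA. The line shows it in capitals within 101 bases of the Zscan4 window's strongest region, on the minus strand. These bases are far from the summit of that wide region, which lies in chr7:11031150-11031250, and are not its summit sequence.
Zscan4 window, chr7:11021919-11022019: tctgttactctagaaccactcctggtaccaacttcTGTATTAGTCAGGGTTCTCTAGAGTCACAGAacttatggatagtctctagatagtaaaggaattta
It has 2579 exact copies in the genome, more than the number of regions that held it. It occurred in 129 members from 56 hotspots, 36 of 1532 (2.35%) in locally repeated windows and 93 of 3179 (2.93%) in the others. Outside hotspots it occurred in 667 GFP-positive-only regions (5.07%), so it was not a mark of hotspots. Over chromosomes 1 to 19, 862 regions held it, of which 796 (92.3%) were GFP-positive-only, 65 were common and 1 was GFP-negative-only. Of the 796, 54% had an intergenic summit and 8.67% a promoter summit. The summit lay a median of 374.5 bp from the 31-mer. Only exact copies were counted, so diverged copies of the same repeat are missed. The other 5 of the 6 most shared 31-mers, 4 of them from dispersed repeats with 15972 to 29605 copies and 1 from a TG repeat, occurred in 180 to 931 GFP-negative-only regions each.

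Promoter summits were more frequent in hotspots than outside in all 3 classes. A promoter summit was found for 23.8% of members and 15.4% of those outside hotspots, beside 17.6% of all GFP-positive-only regions. The Wilson interval for members, 22.6 to 25%, treats members of the same window as independent. Summits in introns were 37.8% and 36.1%, in exons 7.24% and 5.51%, and between genes 31.2% and 43.0%. Promoters took 24.6% of GFP-negative-only summits in hotspots and 19.5% outside, and 49.2% and 44.5% of common summits. Neighbouring members lay a median of 8570 bp apart, 5625 bp in locally repeated windows and 10587 bp in the others.

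Member peaks were no stronger than other GFP-positive-only peaks. Their median −log10 q was 2.07 (quartiles 1.60 and 3.06), against 2.07 outside, and the median fold enrichment was 3.47 against 3.59. A −log10 q of 5 or more was reached by 490 members (10.4%), beside 11% of all GFP-positive-only regions. It was reached by 14.4% of members in locally repeated windows and 8.46% in the others. Common regions of hotspots had a median −log10 q of 4.74 in the GFP-positive list. The median width was 593 bp for members, 562 bp for GFP-positive-only regions outside and 1403 bp for common regions of hotspots. Most members thus lay close to the lowest −log10 q of the list, 1.30, and how many had signal just under that limit in GFP-negative cells was not tested.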

How the data were processed

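The data were 2 peak lists from CUT&RUN for DPPA4, each pooling the 2 libraries of its group. Per the study's methods, the authors trimmed reads with bbduk, aligned them to mm10 with STAR 2.7.10 so that a multimapping read took 1 best or random position, removed duplicates with Picard 2.26.0 and blacklisted reads with SAMtools 1.14, and called peaks with MACS2 2.2.6. Versions are from the submitters' processing notes. Random placement divides reads from a repeat among its copies. The deposited fold enrichment is the authors' ratio to estimated background. The deposited −log10 q values are peak significance after adjustment, as the authors' caller gave them, and the lowest −log10 q was 1.30 in both lists. The deposited score was not used, and the deposited summit offset gave summits. The depth after filtering is unknown for both lists, and greater depth would give more peaks. Whether IgG served as control is not given in the sources used here.

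The 81913 GFP-negative and 53110 GFP-positive peaks of chromosomes 1 to 19 were merged with Python 3.11.15, numpy 2.4.6 and pandas 2.3.3. Genes and start sites are from GENCODE vM21. Copy number and local repetition were counted over 31-mers of both strands of chromosomes 1 to 19, X and Y (GRCm38, which carries mm10 sequence). Soft-masking was read from lower-case letters of the RefSeq genome, and repeat classes were not analysed here. Named windows were the 10 with most GFP-positive-only regions, and named genes those with most members in or within 5000 bp of the gene body, with up to 5 a window and 25 in all. Members of a gene lie in hotspot windows only, while its GFP-negative-only and common counts cover the whole gene. Windows, members and gene lists were chosen with earlier results of these data known. Merging was tested on made-up intervals and the counting of sequence copies on simulated sequence, while window counts were not tested in this way. With 1 pooled list a group, no test between groups was made. Columns of per-sample values left unused numbered 0. The strongest sites of some of the named windows are not reported here.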

Additional observations from a re-analysis of the deposited data

How the results depend on the processing

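No paired analysis was possible because each list pools its replicates. Against 110 hotspot windows, the number was 229 at a threshold of 20, 48 at 40, 25 after peaks under a −log10 q of 2 were dropped, 2 after those under 5 were, 44 when peaks within 500 bp were merged and 55 with regions of copy number 1. The share of GFP-positive-only regions in hotspots, 26.4%, became 25.3% with windows shifted by 0.5 Mb, 42.4% at a threshold of 20, 14.6% at 40, 9.79% with a −log10 q of at least 2, 1.74% with at least 5, 32.3% with the 50000 strongest peaks of each list, 12.9% with peaks within 500 bp merged and 18.5% with copy number 1. These settings change the windows by construction, and of the 55 windows with copy number 1 only 3 were locally repeated. The excess of genes per window rose from 27 to 32 with a −log10 q of at least 2, and that of protein-coding genes from 15 to 19 with copy number 1. The difference in soft-masked share, 1.26 points, turned to −0.956 at a threshold of 20 and −0.612 with copy number 1, and was 2.42 at 40 and 2.65 with a −log10 q of at least 2, so its direction is unsettled. Soft-masked bases were 36.4% in the 200 bp around summits. Members with multi-copy summits were 24.6% with 51-mers, 30.5% over 500 bp, 12.0% at 10 or more copies, and 29.5% and 36.6% at thresholds of 20 and 40. A second copy lay within 2.5 Mb of the window's middle for 75.5% of multi-copy members. Promoter members were 16.3% within 1000 bp of a start and 16.0% for protein-coding genes. The 2-cell genes in hotspots numbered 39 and 23 at thresholds of 20 and 40. Splitting hotspots at 20% or 5% local repetition, added after the data were seen, gave 21 and 46 locally repeated windows.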

Other observations

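Several 2-cell genes lay in windows that did not meet the hotspot rule. The 5 Usp17l genes, which encode deubiquitinases, all had a GFP-positive-only summit at the promoter and no summit of the other classes there, in windows with 14 and 25 GFP-positive-only and 1 and 4 GFP-negative-only regions. Gm4340 had 2 such summits, in a window of chromosome 10 with 22 and 1. Arg2, an arginase gene, had 2 in a window with 18 and 22, and Gm13119 had 1 in a window with 24 and 7. In all, 9 of the 16 2-cell genes outside hotspots had a GFP-positive-only promoter summit. Duxf3, the gene of the transcription factor that starts the 2-cell programme, and Spz1 each had a common summit and no GFP-positive-only one.

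Hotspots without a named gene family included 3 windows of chromosome 12 with 1 protein-coding gene each, at chr12:18000001-19000000, chr12:20000001-21000000 and chr12:23000001-24000000, picked out after their values were seen. They held 31, 30 and 32 GFP-positive-only regions against 1, 3 and 5 GFP-negative-only ones, with 27, 23 and 29 pseudogenes, and 80.6%, 90% and 100% of their members had a copy number of 2 or more. The window between the first pair held 29 and 2. The adjacent windows at chr5:94000001-96000000, where 13 of 13 and 9 of 11 protein-coding genes had only predicted names, held 58 and 37 members against 1 and 0 GFP-negative-only regions.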
